A study of Mus musculus with 8 samples.

Results

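The genes described here encode collagens, laminins and the proteins built into basement membranes with them. They were chosen by gene symbol: every collagen chain (Col, a number, a, a number), every laminin chain (Lama, Lamb or Lamc with a number), the basement membrane proteins Nid1, Nid2, Hspg2 and Agrn, and the matrix proteins Sparc, Fn1, Dcn and Lum. The rule found 62 of the 21893 genes named on the array, on 95 probes. Of these 61 had a value on all 8 arrays and were tested, among 21794 genes in all. Col1a2 had an empty value on 1 array and is given from its available values.

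The arrays compared cells of the mammary gland of virgin wild-type FVB/N-J mice, plated as mammospheres, which are floating three-dimensional colonies, and harvested after 8 days. The 4 groups of 2 arrays each were MaSC with IFNα, MaSC control, LP with IFNα and LP control. MaSC is the P4 fraction, enriched for mammary stem cells, which lie in the basal layer. LP is the P5 fraction, enriched for luminal progenitors. IFNα, a type I interferon, was given at 1000 U/ml. The sample titles carry 1 surface phenotype, CD24+CD29hi, for P4 and P5 alike, and the subpopulation label tells the fractions apart. The labels do not say whether the replicates came from separate animals or cultures, so p-values measure the spread between these samples. Each value is a log2 ratio of the Cy5-labelled sample to a Cy3-labelled Universal Mouse Reference RNA pooled from 11 cell lines. A ratio of 0 stands for equal signals, and a level below 0 is lower than in that pool. Since each probe has its own reference level, ratios were compared between arrays and never between genes.

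A basement membrane is the thin sheet of matrix under an epithelium. Laminin trimers polymerise on the cell surface, collagen IV forms a second network, and nidogens and heparan sulfate proteoglycans join the networks. In the mammary gland basal and myoepithelial cells rest on this sheet. Hemidesmosomes fix them to it with collagen XVII and a laminin that holds the chains Lama3 and Lamb3. Fibrillar collagens I, III and V lie in the stroma beyond it and are made mainly by fibroblasts.

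The group labels were first set against genes outside this set. With IFNα, Usp18, an interferon-stimulated gene, was at 2.28 and 2.30 in MaSC and at 2.41 and 2.74 in LP, against -4.19 and -4.11 in MaSC controls and -3.26 and -4.48 in LP controls. Of 7 basal markers 5 were higher in MaSC than in LP, among them the basal keratin Krt5 by 3.78 ± 0.29 (log2 change ± SE, adjusted p = 0.0045), and none was lower. Of 7 luminal markers 0 passed in either direction. Over all genes 2.34% were higher in MaSC and 1.34% were lower. Kit, a receptor that marks luminal progenitors, was at 6.88, 7.28, 7.56 and 8.21 on the MaSC arrays, against 6.82, 7.80, 3.66 and 7.72 on the LP arrays (in each set IFNα replicates 1 and 2, then control replicates 1 and 2). Kit overlapped between the fractions, with a difference of 0.98 ± 0.88, and its lowest value, 3.66, was on LP control replicate 1. That difference is not given here without that array. The differences of the 7 luminal markers ran from -0.88 to 0.98, with 4 above 0 and a median of 0.62. One array stood apart. LP control replicate 1 had a standard deviation over probes of 0.63, against 1.19 to 1.26 on the other arrays, and over the matrix genes of 1.34, against 1.76 to 2.25. Some results that rest on it are also given without it, and others are not.

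Averaged over treatment, 12 of the 61 matrix genes (19.7%) passed between MaSC and LP, and 3.69% of all genes tested did. At an unadjusted p under 0.05 were 25 of the 61, against 23.2% of all genes. The hemidesmosomal collagen Col17a1, the anchoring collagen Col7a1, the basement membrane chains Col4a1, Lama1 and Lama2, the microfibril chains Col6a1 and Col6a3, and the stromal proteins Sparc, Dcn and Lum were higher in MaSC. The laminin chains Lama5 and Lamb2 were lower in MaSC. In bulk samples such as these, fewer cells of a type and less RNA per cell cannot be told apart. The 10 higher calls stand beside 2.34% of all genes that were higher, and the 2 lower ones beside 1.34% that were lower. The median log2 change was 0.37 over the matrix genes and -0.02 over all genes. On 17 of 61 (27.9%) all 4 MaSC arrays lay above all 4 LP arrays, as they did for 7.58% of all genes, and on 2 (3.28%) all lay below, as for 10.4% of all genes. Without LP control replicate 1 these counts were 25, against 10.9% of all genes, and 5, against 14.2%.

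**Figure D1:**
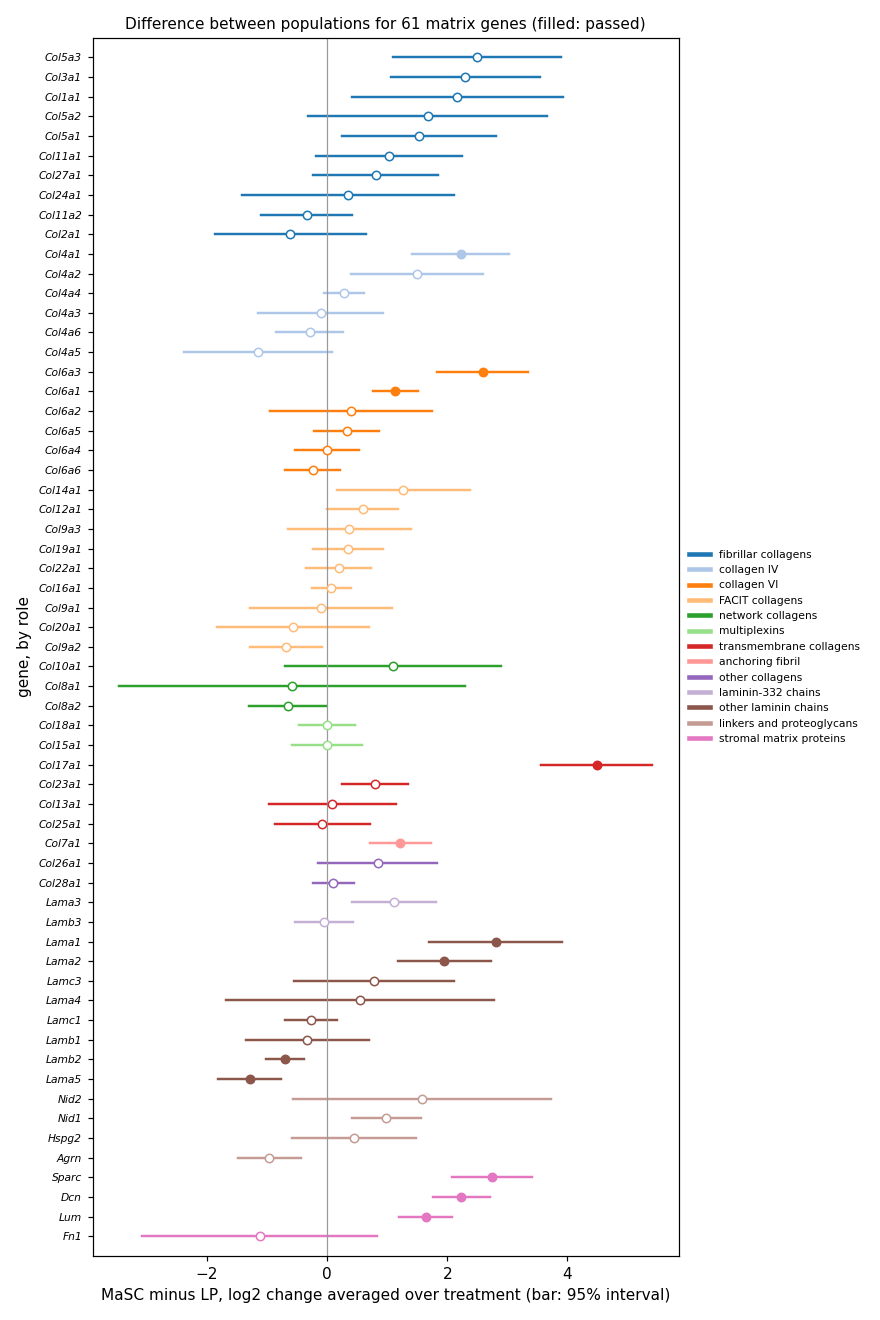
Log2 change between MaSC and LP averaged over treatment (x axis, point with 95% interval) for the 61 tested matrix genes, grouped by role (rows and colours); filled points passed. The filled points stand at 4.48 for Col17a1, between 1.14 and 2.80 for 9 other genes, and at -0.70 and -1.29 for Lamb2 and Lama5.

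Col17a1 encodes collagen XVII, the transmembrane collagen of hemidesmosomes. Its ratio was 5.23 and 5.27 in MaSC with IFNα and 5.10 and 5.21 in MaSC controls, against 0.56 and 1.61 in LP with IFNα and -0.37 and 1.06 in LP controls. The 4 MaSC arrays lay close together and above all LP arrays, which spread more widely. The difference was 4.48 ± 0.38, or 22.4-fold (adjusted p = 0.0059), and it was the largest among the matrix genes. It passed under all 14 alternatives run, with 4.13 without LP control replicate 1. The 250 bases before its start (RefSeq, GRCm38.p6, chr19:47692043-47692292, minus strand) are shown because no other matrix gene differed as much. The capitals mark TATAAA at 2 places and CCAAT, here read on the other strand as its reverse complement.

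Col17a1: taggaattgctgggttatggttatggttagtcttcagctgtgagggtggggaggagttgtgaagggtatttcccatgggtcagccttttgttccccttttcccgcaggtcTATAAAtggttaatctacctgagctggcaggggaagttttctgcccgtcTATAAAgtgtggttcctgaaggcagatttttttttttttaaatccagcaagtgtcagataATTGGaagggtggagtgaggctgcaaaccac

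Col7a1, which forms the anchoring fibrils below the sheet, was at 2.67 and 2.17 in MaSC with IFNα and at 2.48 and 2.48 in MaSC controls, against 1.57 and 1.26 in LP with IFNα and 0.74 and 1.34 in LP controls. The populations did not overlap. The difference was 1.22 ± 0.21 (adjusted p = 0.039). Among the fits that each left out 1 array, it passed only without LP control replicate 2 (adjusted p = 0.038), and the other 7 gave adjusted p between 0.067 and 0.133. Col7a1 was also lost with quantile normalization and with arrays scaled to the same spread.

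The hemidesmosomal laminin chains measured did not pass. Lama3 averaged 3.85 ± 0.27 on the MaSC arrays and 2.73 ± 0.79 on the LP arrays (SD, n = 4 each), a difference of 1.11 ± 0.28 (adjusted p = 0.093), and 1 LP array with IFNα lay inside the MaSC range. Its 2 probes gave 1.29 and 0.94. Lamb3 averaged 3.13 ± 0.19 on the MaSC arrays and 3.18 ± 0.30 on the LP arrays. Its difference of -0.05 had a 95% interval of -0.53 to 0.44. Col17a1 and Lamb3, which sit in the same junction, thus had differences of 4.48 and -0.05 between the same arrays. Itgb4, the integrin chain of hemidesmosomes, had a difference of 0.48 ± 0.12 (adjusted p = 0.092).

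Of the 8 other laminin chains 4 passed, 2 in each direction, where 3.69% of all genes passed in either direction. Lama1, the α chain of the classical laminin of early embryos, was at 3.86 and 4.54 in MaSC with IFNα and at 4.37 and 5.70 in MaSC controls, against 2.92 and 2.42 in LP with IFNα and 0.24 and 1.68 in LP controls. Its difference was 2.80 ± 0.45 (adjusted p = 0.035). Lama2, the α chain of muscle and myoepithelial laminin, was at 0.65 and 0.08 in MaSC with IFNα and at 1.23 and 0.87 in MaSC controls, against -1.31 and -1.98 in LP with IFNα and -0.30 and -1.39 in LP controls. Its difference was 1.95 ± 0.32 (adjusted p = 0.036), and its 2 probes gave 2.27 and 1.63. For both chains every MaSC array lay above every LP array. When arrays were left out in turn, Lama1 passed only without LP control replicate 2 (adjusted p = 0.030) and reached 0.051 to 0.128 in the other 7 fits. Lama2 passed without either LP control array (adjusted p = 0.028 and 0.046) and reached 0.091 to 0.124 in the other 6.

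Lama5, the α chain of the broadly expressed epithelial laminin, was lower in MaSC. It was at 0.64 and 0.03 in MaSC with IFNα and at 0.78 and 0.19 in MaSC controls, against 1.47 and 1.62 in LP with IFNα and 1.77 and 1.95 in LP controls. All MaSC arrays lay below all LP arrays, and the difference was -1.29 ± 0.21 (adjusted p = 0.037). Lamb2, a β chain, was at -0.65 and -0.66 in MaSC with IFNα and at -0.46 and -0.66 in MaSC controls, against 0.27 and 0.11 in LP with IFNα and -0.10 and 0.09 in LP controls. Its difference was small but again without overlap, -0.70 ± 0.13 (adjusted p = 0.048). Both calls were lost whichever of the 8 arrays was left out, with adjusted p between 0.056 and 0.129 for Lama5 and between 0.076 and 0.159 for Lamb2. Scaling the arrays to the same spread also ended both. The 250 bases before the start of Lama5 (RefSeq, GRCm38.p6, chr2:180225860-180226109, minus strand) are shown beside those of Col17a1 as the start of the matrix gene with the largest fall. The capitals mark GGGCGG at 4 places, read on either strand, and CCCTCCCC at 1.

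Lama5: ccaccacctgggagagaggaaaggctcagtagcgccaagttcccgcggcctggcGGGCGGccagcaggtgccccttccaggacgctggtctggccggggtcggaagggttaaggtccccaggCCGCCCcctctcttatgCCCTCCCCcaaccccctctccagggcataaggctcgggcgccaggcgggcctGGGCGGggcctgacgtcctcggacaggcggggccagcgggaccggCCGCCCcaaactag

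The remaining laminin chains did not pass. The β chain Lamb1 was at 0.53 and -1.0 in MaSC with IFNα and at 0.86 and -0.33 in MaSC controls, against 0.20 and 0.00 in LP with IFNα and 0.72 and 0.48 in LP controls. The difference was -0.33 ± 0.42, smaller than the gap between MaSC replicates. Lamc1, the γ chain shared by most laminins, averaged -1.01 ± 0.21 on the MaSC arrays and -0.74 ± 0.22 on the LP arrays (SD, n = 4 each), a difference of -0.26 with a 95% interval of -0.69 to 0.17. Lamc3 gave 0.78 ± 0.54 with overlap, and without LP control replicate 1 all its MaSC arrays lay above all its LP arrays. Lama4, an α chain of vessel walls, was at 4.66 and 4.81 in MaSC with IFNα and at 4.76 and 4.30 in MaSC controls, against 5.11 and 4.88 in LP with IFNα and 0.98 and 5.36 in LP controls. LP control replicate 1 lay far below the other 7 arrays. The difference was 0.55 ± 0.91 (adjusted p = 0.76). Without that array all MaSC arrays lay below all LP arrays for Lama4, and with it as the sole LP control Lama4 passed as higher in MaSC, by 1.65 (adjusted p = 0.024).

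**Figure D2:**
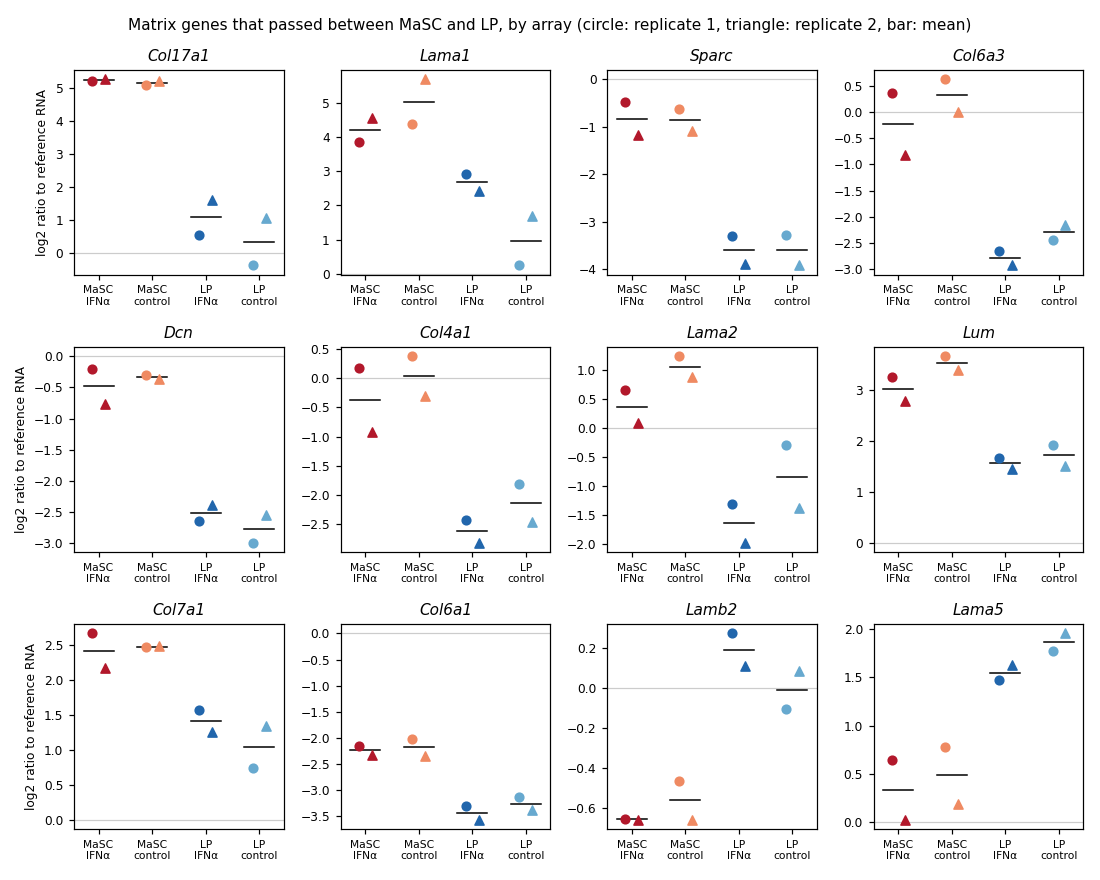
Log2 ratio to the reference RNA (y axis, own scale in each panel) on each of the 8 arrays for the 12 matrix genes that passed between MaSC and LP; circles are replicate 1, triangles replicate 2, bars group means. In each panel the MaSC groups stand on one side of the LP groups, with Lamb2 and Lama5 as the panels with lower MaSC values.

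Of the 6 collagen IV chains 1 passed, where 3.69% of all genes did. Col4a1, which pairs with Col4a2 in the common network, was at 0.18 and -0.93 in MaSC with IFNα and at 0.38 and -0.30 in MaSC controls, against -2.44 and -2.82 in LP with IFNα and -1.82 and -2.47 in LP controls. The populations did not overlap, and the difference was 2.22 ± 0.33 (adjusted p = 0.028). When 1 array was left out, the call held without MaSC IFNα replicate 2 and without LP control replicate 1 (adjusted p = 0.047), and the other 6 fits gave 0.054 to 0.113. Col4a2, its partner, was at 0.02 and -1.16 in MaSC with IFNα and at 0.01 and -0.64 in MaSC controls, against -2.32 and -2.55 in LP with IFNα and -0.63 and -2.25 in LP controls. LP control replicate 1 alone overlapped with MaSC. The difference was 1.50 ± 0.45 (adjusted p = 0.12), and 1.90 without that array (adjusted p = 0.071). With quantile normalization Col4a2 passed, at 1.61 (adjusted p = 0.033). The annotated starts of these neighbours are 21 bases apart on opposite strands of chromosome 8.

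The chains of the specialised collagen IV networks did not pass. Col4a3 and Col4a4, also neighbours with starts on 1 chromosome, gave -0.11 ± 0.42 and 0.28 ± 0.14. Col4a5 and Col4a6, neighbours on the X chromosome, gave -1.15 ± 0.51 (adjusted p = 0.24) and -0.29 ± 0.23. The median over the 6 chains was 0.08.

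The linkers of the sheet did not pass, though Nid1 and Agrn did under other scalings. The nidogen Nid1 averaged -0.15 ± 0.16 on the MaSC arrays and -1.14 ± 0.42 on the LP arrays (SD, n = 4 each) without overlap, a difference of 0.99 ± 0.24 (adjusted p = 0.081). Its 3 probes gave 1.98, 0.64 and 0.34. Nid1 passed with quantile normalization (1.05, adjusted p = 0.024) and with arrays scaled to one spread (1.06, adjusted p = 0.025). Nid2 was at -2.95 and -3.98 in MaSC with IFNα and at -2.87 and -3.10 in MaSC controls, against -5.82 and -6.29 in LP with IFNα and -1.51 and -5.60 in LP controls. Here too LP control replicate 1 stood apart, above every other array. The difference was 1.58 (adjusted p = 0.34) with it and 2.61 (adjusted p = 0.028) without it. Agrn, the proteoglycan agrin, averaged 0.89 ± 0.37 on the MaSC arrays and 1.85 ± 0.49 on the LP arrays, a difference of -0.96 ± 0.21 (adjusted p = 0.072), and passed with quantile normalization (-1.18, adjusted p = 0.048). Hspg2, the proteoglycan perlecan, gave 0.45 with a 95% interval of -0.58 to 1.48, and its 2 probes had opposite signs, 0.96 and -0.06. Hspg2 and Agrn overlapped between the populations. Without LP control replicate 1 all MaSC arrays lay above all LP arrays for Hspg2, and below them for Agrn.

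Over collagen IV, the laminins outside the hemidesmosome and the linkers, 18 genes in all, 3 were higher and 2 were lower in MaSC. Over all genes 2.34% were higher and 1.34% were lower. The median was -0.02 over all genes and 0.36 over the 18. The latter was 0.04 without LP control replicate 1 and 0.12 without LP control replicate 2. The 5 that passed were Col4a1, Lama1 and Lama2 on the higher side and Lama5 and Lamb2 on the lower.

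Of the 10 fibrillar collagens tested 0 passed between the populations in limma, where 4 were at an unadjusted p under 0.05, as were 23.2% of all genes. Their differences were positive for 8, with a median of 1.28. Col1a1, a chain of the main stromal collagen, was at -1.46 and -3.94 in MaSC with IFNα and at -1.28 and -3.22 in MaSC controls, against -4.06 and -5.28 in LP with IFNα and -4.24 and -5.00 in LP controls. Every MaSC array lay above every LP array, by a small margin for replicate 2 with IFNα. The difference was 2.17 ± 0.72 (adjusted p = 0.15). Col1a2, its partner chain, was at -2.08 and -3.81 in MaSC with IFNα and at -3.39 in MaSC control replicate 2, against -3.69 and -4.49 in LP with IFNα and -3.88 and -4.27 in LP controls. In a fit of genes with at least 1 value in every group, which leaves out the empty value of MaSC control replicate 1, its difference was 0.92 ± 0.51 (adjusted p = 0.36).

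Col3a1, the collagen of reticular fibres, was at -1.03 and -2.80 in MaSC with IFNα and at -0.98 and -2.34 in MaSC controls, against -3.92 and -4.55 in LP with IFNα and -3.60 and -4.26 in LP controls. The populations did not overlap, and the difference was 2.30 ± 0.51 (adjusted p = 0.070). Col5a3, a collagen V chain, was at 1.30 and -0.57 in MaSC with IFNα and at 1.42 and 0.41 in MaSC controls, against -1.47 and -2.62 in LP with IFNα and -1.02 and -2.31 in LP controls, a difference of 2.49 ± 0.57 (adjusted p = 0.076), the largest of the group. Col5a3 passed with quantile normalization (adjusted p = 0.028) and with arrays scaled to one spread (adjusted p = 0.037). The other collagen V chains gave 1.53 ± 0.52 for Col5a1 (adjusted p = 0.16) and 1.68 ± 0.81 for Col5a2 (adjusted p = 0.28). LP control replicate 1 overlapped with MaSC in both, and without it they gave 1.92 (adjusted p = 0.12) and 2.48 (adjusted p = 0.10). With arrays scaled to one spread Col5a1 passed, at 2.04 (adjusted p = 0.042). Of the cartilage chains, Col2a1 gave -0.62 ± 0.51 and Col11a2 -0.34 ± 0.31, while Col11a1 gave 1.03 ± 0.49. The minor chains Col24a1 and Col27a1 gave 0.35 ± 0.72 and 0.80 ± 0.42.

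**Figure D3:**
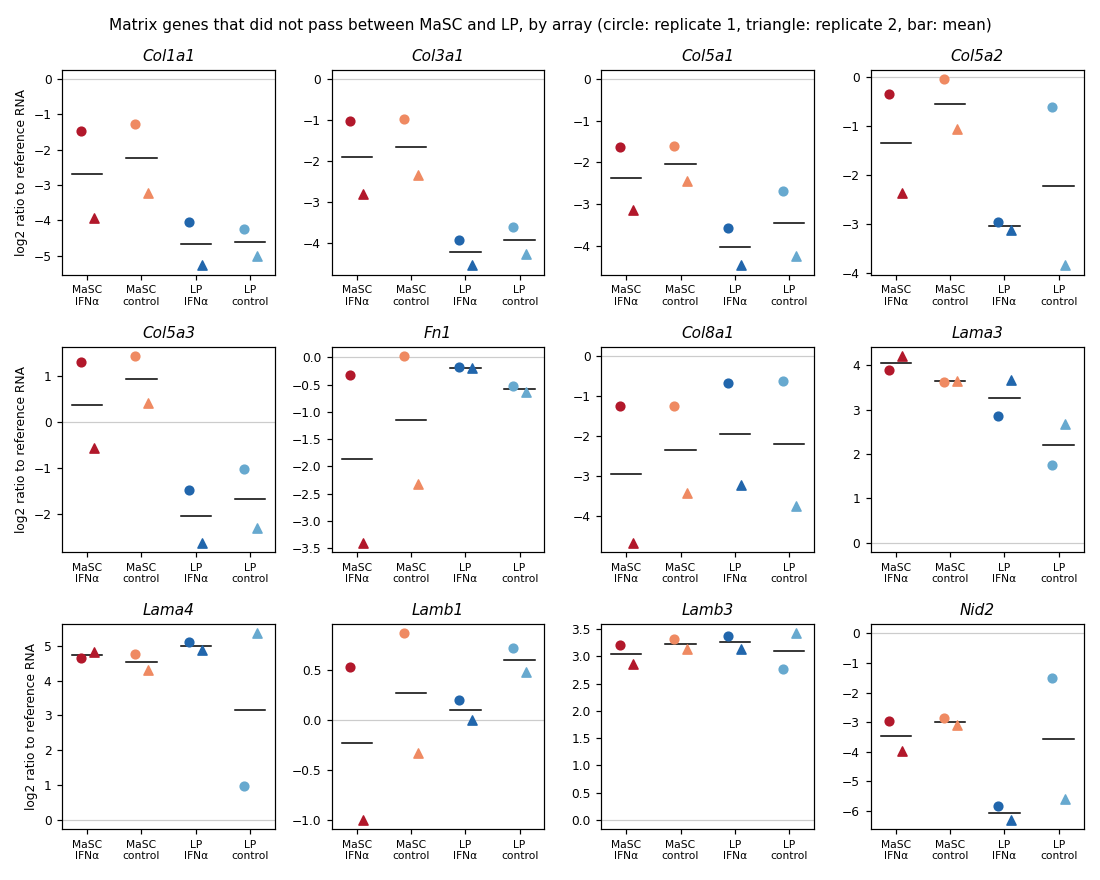
Log2 ratio to the reference RNA (y axis, own scale in each panel) on each of the 8 arrays for 12 matrix genes that did not pass between MaSC and LP; circles are replicate 1, triangles replicate 2, bars group means. For Col1a1, Col3a1 and Fn1 in MaSC the circles stand well above the triangles, and for Lama4 and Nid2 the circle of LP control stands apart from the other 7 arrays.

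Replicate 1 was above replicate 2 in all 4 groups for 22 of 61 matrix genes (36.1%), among them 6 of the 10 fibrillar collagens, as it was for 11.1% of all genes. It was below in all 4 groups for 4 (6.56%), as for 11.4% of all genes. Col1a1 fell into the first set, with replicate 1 above replicate 2 by 2.48 in MaSC with IFNα, 1.94 in MaSC controls, 1.22 in LP with IFNα and 0.76 in LP controls. These gaps stand beside a population difference of 2.17 for that gene. Col8a1, a short-chain network collagen, had the widest ones, 3.42, 2.17, 2.56 and 3.14 in the same order, and its population difference was -0.58 ± 1.18. The labels give no batch that these numbers would stand for.

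Of the 4 stromal proteins 3 were higher in MaSC, as were 2.34% of all genes. Sparc, a collagen-binding glycoprotein, was at -0.49 and -1.19 in MaSC with IFNα and at -0.63 and -1.09 in MaSC controls, against -3.29 and -3.89 in LP with IFNα and -3.28 and -3.92 in LP controls. The difference was 2.75 ± 0.27, or 6.71-fold (adjusted p = 0.0094), and it held in 7 of 8 fits with 1 array left out, all but that without LP IFNα replicate 2 (adjusted p = 0.054). Dcn, the proteoglycan decorin that coats collagen fibrils, was at -0.20 and -0.76 in MaSC with IFNα and at -0.30 and -0.36 in MaSC controls, against -2.64 and -2.39 in LP with IFNα and -2.99 and -2.54 in LP controls. Its difference of 2.23 ± 0.19 (adjusted p = 0.0061) held in all 8 such fits, and was lost by scaling the arrays to the same spread (adjusted p = 0.070). Lum, the related proteoglycan lumican and neighbour of Dcn on chromosome 10, was at 3.26 and 2.79 in MaSC with IFNα and at 3.66 and 3.39 in MaSC controls, against 1.67 and 1.45 in LP with IFNα and 1.92 and 1.51 in LP controls. Its difference of 1.64 ± 0.18 (adjusted p = 0.013) was lost without MaSC control replicate 2 (0.052), LP IFNα replicate 1 (0.062) or LP IFNα replicate 2 (0.069), and by scaling the arrays to one spread (0.99, adjusted p = 0.24).

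Fn1, fibronectin, did not pass. It was at -0.33 and -3.40 in MaSC with IFNα and at 0.02 and -2.32 in MaSC controls, against -0.18 and -0.19 in LP with IFNα and -0.52 and -0.63 in LP controls. Replicate 2 was low in both MaSC groups, and the LP arrays lay close together. The difference of -1.12 ± 0.80 (adjusted p = 0.45) was smaller than that gap.

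Collagen VI forms beaded microfibrils near basement membranes, and 2 of its 6 chains passed, where 3.69% of all genes did. Col6a3 was at 0.37 and -0.82 in MaSC with IFNα and at 0.63 and 0.00 in MaSC controls, against -2.65 and -2.93 in LP with IFNα and -2.44 and -2.15 in LP controls, a difference of 2.59 ± 0.31 (adjusted p = 0.017). Col6a1 was at -2.15 and -2.33 in MaSC with IFNα and at -2.02 and -2.34 in MaSC controls, against -3.31 and -3.57 in LP with IFNα and -3.14 and -3.37 in LP controls, a difference of 1.14 ± 0.15 (adjusted p = 0.022). Neither overlapped between the populations. Col6a3 was lost without either MaSC control array (0.052 and 0.053) or either LP array with IFNα (0.075 and 0.080), and Col6a1 without any MaSC array or either LP array with IFNα (0.062 to 0.091). Col6a1 was also lost with quantile normalization and with arrays scaled to the same spread. Col6a2, the neighbour of Col6a1, was at -2.19 and -3.13 in MaSC with IFNα and at -2.0 and -2.25 in MaSC controls, against -3.17 and -3.38 in LP with IFNα and -1.10 and -3.53 in LP controls. LP control replicate 1 was again the highest array, and the difference was 0.40 ± 0.55. Without that array all MaSC arrays lay above all LP arrays for Col6a2, by a small margin. The chains Col6a4, Col6a5 and Col6a6 lay between -0.24 and 0.32.

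The 250 bases before the start of Col6a1 (RefSeq, GRCm38.p6, chr10:76726045-76726294, minus strand) are shown because they held the sole match among the windows of the matrix genes to the AP-1 motif TGANTCA. The capitals mark it once and CCCTCCCC at 2 places.

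Col6a1: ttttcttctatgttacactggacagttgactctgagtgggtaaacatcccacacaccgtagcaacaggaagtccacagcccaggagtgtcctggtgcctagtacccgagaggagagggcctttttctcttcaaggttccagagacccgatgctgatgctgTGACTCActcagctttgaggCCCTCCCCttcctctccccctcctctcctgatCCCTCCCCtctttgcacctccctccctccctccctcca

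Promoter windows, each 250 bases before to 50 after an annotated start, were given for 44 of the matrix genes in 49 windows, and 6 motifs were searched on both strands. GGGCGG was in 30 of the 49 windows and in 35.7% of all 32851 windows, CCAAT in 15 and in 37.4% of all, CCCTCCCC in 13 and in 10.8% of all, TATAAA in 5 and in 13.6% of all, and TGANTCA in 1 and in 7.81% of all. The core of the interferon-stimulated response element was in 0 of the 49 and in 3.44% of all. Motifs were not checked for overlap with each other, and a match is a run of letters and nothing more.

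Of the 9 collagens that attach to fibrils 0 passed, with 3 at an unadjusted p under 0.05 in limma, as were 23.2% of all genes. Col9a2 gave -0.69 ± 0.24 (adjusted p = 0.17), and passed as lower in MaSC with quantile normalization (-1.01, adjusted p = 0.036) and with arrays scaled to one spread (-1.03, adjusted p = 0.048). Its populations overlapped, and without LP control replicate 1 all its MaSC arrays lay below all its LP arrays. Col14a1, the one furthest from 0, gave 1.27 ± 0.45 (adjusted p = 0.17) with no overlap between populations, but its 2 probes gave 2.51 and 0.03. Without LP control replicate 1 it gave 1.77 (adjusted p = 0.036). Col12a1, also without overlap, gave 0.59 ± 0.24. The transmembrane collagens other than Col17a1 were Col23a1 at 0.80 ± 0.22 (adjusted p = 0.11; 1.58 and 0.047 for its probe with the highest mean), Col13a1 at 0.08 and Col25a1 at -0.08. Col15a1 and Col18a1, which carry the precursors of antiangiogenic fragments in the basement membrane zone, had differences close to 0, with 95% intervals of -0.58 to 0.57 and -0.47 to 0.47. Some values sat where most probes sit. Col28a1 had its probe within 0.1 of the most frequent value of the array on all 8 arrays, and Col6a5 had both of its probes there on at least 5, a range that held 20.8% to 29.9% of all probes. The 3 probes of Col15a1 were there on 5, 4 and 3 arrays, and their differences were 0.02, 0.21 and -0.24. Whether their signal was above background is not known here. Of the 25 matrix genes with several probes 12 had probes of opposite sign.

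In control cultures Dcn was higher in MaSC by 2.43 ± 0.27 and Col17a1 by 4.81 ± 0.54 (adjusted p = 0.033 each), so 2 of 61 passed, against 0.601% of all genes. Sparc followed with 2.74 ± 0.38 (adjusted p = 0.054). With IFNα Col17a1 passed at 4.16 ± 0.54 (adjusted p = 0.0498), 1 of 61, against 0.505% of all genes, with Dcn at 2.03 ± 0.27 (adjusted p = 0.055) and Sparc at 2.75 ± 0.38 (adjusted p = 0.058) next. At an unadjusted p under 0.05 the counts were 17 in controls, against 13.8% of all genes, and 20 with IFNα, against 16.9%. When 1 array was left out, both calls in controls passed only without LP control replicate 2, and were lost in the other 7 fits. The Dcn call in controls was also lost with quantile normalization and with arrays scaled to one spread. The Col17a1 call with IFNα passed without either LP control array and was lost in the other 6 fits. Lama1 had 4.08 ± 0.64 in controls (adjusted p = 0.075) and 1.53 ± 0.64 with IFNα, and the difference between these did not pass (adjusted p = 0.9997). Its LP controls were at 0.24 for replicate 1 and at 1.68 for replicate 2.

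Genes that work on the matrix were read from lists, beside 2.34% of all genes that were higher in MaSC and 1.34% that were lower. Of 25 genes for collagen processing 0 passed between MaSC and LP, with a median of 0.32. Pcolce, which enhances the cleavage of procollagens, had the lowest p, with 1.76 ± 0.34 (adjusted p = 0.054). Of 26 matrix receptors 3 were higher and 1 lower in MaSC, with a median of -0.02. The collagen-binding integrin chain Itga11 was higher by 2.43 ± 0.43 (adjusted p = 0.043), the integrin chain Itga9 by 1.91 ± 0.24 and the syndecan Sdc1 by 0.76 ± 0.12, while Dag1, dystroglycan, a receptor for laminin, fell by 0.77 (adjusted p = 0.036). Dag1 was at -0.32 and -0.46 in MaSC with IFNα and at -0.23 and -0.46 in MaSC controls, against 0.31 and 0.27 in LP with IFNα and 0.57 and 0.47 in LP controls.

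Of 14 further basement membrane genes 3 were higher in MaSC: Frem1 by 2.95 ± 0.39, Smoc2 by 2.56 ± 0.20 and the hemicentin Hmcn1 by 2.35 ± 0.42, with a median of 0.13 over the list. Of 27 further matrix proteins 3 were higher, the decorin relative Aspn by 4.05 ± 0.69, the Sparc relative Sparcl1 by 3.42 ± 0.30 and vitronectin, Vtn, by 1.64 ± 0.27, and thrombospondin Thbs1 was lower, at -1.34 ± 0.19 (adjusted p = 0.026). The median of that list was 0.64. Over all genes 2.34% were higher and 1.34% were lower. Sparcl1 was at 4.91 and 3.87 in MaSC with IFNα and at 5.02 and 4.19 in MaSC controls, against 1.29 and 1.00 in LP with IFNα and 1.14 and 0.89 in LP controls, again without overlap.

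Some markers of other cell types also differed between MaSC and LP, where 2.34% of all genes were higher and 1.34% were lower. Of 10 fibroblast markers 2 were higher in MaSC, Pdgfrb by 3.15 ± 0.41 and Dpt by 2.22 ± 0.35, with a median of 1.49. Their summed log2 ratio was -14.3 to -7.10 in MaSC with IFNα and -12.1 to -6.24 in MaSC controls, against -25.6 to -22.4 in LP with IFNα and -28.6 to -16.6 in LP controls. Pdgfra, a defining fibroblast marker, was below the reference on all arrays, at -3.55 to -2.80 in MaSC and -4.89 to -3.46 in LP. Of 7 endothelial markers 5 were higher in MaSC, Cdh5 by 4.78 ± 0.28 and Emcn by 3.42 ± 0.21 among them, while Pecam1 gave -0.08 ± 0.24. Their sum was 20.8 to 23.7 in MaSC with IFNα and 18.7 to 18.8 in MaSC controls, against 3.55 to 6.01 in LP with IFNα and 0.30 to 0.43 in LP controls.

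Of 5 mural markers 1 was higher in MaSC, Rgs5 by 2.83 ± 0.30, with a sum of 0.87 to 3.53 in MaSC with IFNα and 1.21 to 2.99 in MaSC controls, against -3.42 to -3.08 in LP with IFNα and -1.85 to 0.68 in LP controls. Of 5 adipocyte markers 2 were, Fabp4 by 4.75 ± 0.26 and Adipoq by 3.54 ± 0.29, with a sum of 9.63 to 11.0 in MaSC with IFNα and 14.1 to 14.2 in MaSC controls, against 0.53 to 2.47 in LP with IFNα and -0.15 to -0.074 in LP controls. Of 5 leukocyte markers 0 passed, with a sum of -7.15 to -6.20 over the MaSC arrays and -7.06 to -3.22 over the LP arrays. Basal markers summed to 12.3 to 16.3 in MaSC with IFNα and 12.9 to 15.1 in MaSC controls, against -4.42 to -2.56 in LP with IFNα and -2.89 to 2.46 in LP controls. Since the ratios are to a reference, no marker can be said to be absent. The part of these cell types in the matrix differences was not tested.

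**Figure D4:**
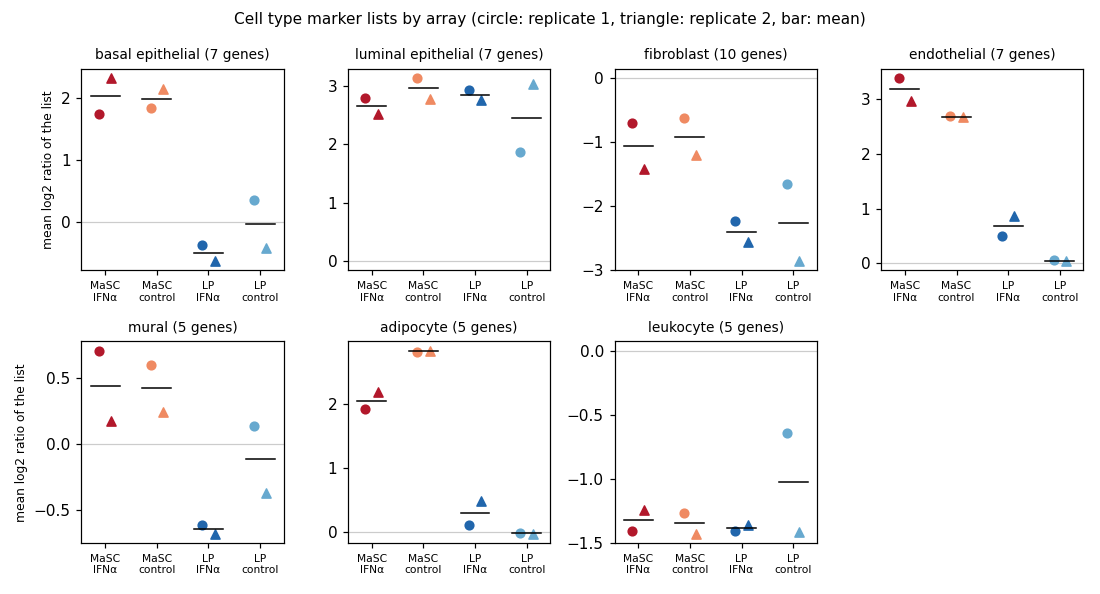
Mean log2 ratio to the reference RNA over each list of cell type markers (y axis, own scale in each panel) on each of the 8 arrays; circles are replicate 1, triangles replicate 2, bars group means. The basal, fibroblast, endothelial, mural and adipocyte lists were higher on all MaSC arrays than on all LP arrays, and the luminal and leukocyte lists were not.

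The genes most like Col1a1 over the 8 arrays were Fbln2, Ccn4 and Uchl1 (Pearson's r = 0.983, 0.983 and 0.980), and those most like Col4a1 were Prss53, Pcolce and Serpina1e (r = 0.988, 0.988 and 0.987). These points share the arrays and the split between populations, and the values are a description. A correlation leaves out the size of a change. Prss53 ran only from -0.14 to 0.38 over the 8 arrays, and Col4a1 from -2.82 to 0.38. Fbln2, fibulin 2, was at -1.78 and -2.89 in MaSC with IFNα and at -1.53 and -2.44 in MaSC controls, against -2.70 and -3.58 in LP with IFNα and -2.77 and -3.42 in LP controls. As for Col1a1, its replicate 1 was above replicate 2 in all 4 groups.

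With IFNα limma called no matrix gene. In MaSC 0 of 61 passed, against 0.234% of all genes, and 1 was at an unadjusted p under 0.05, against 4.54% of all genes. In LP 0 passed, against 0.33%, and 5 were under 0.05, against 7.42%. Averaged over the populations 0 passed, against 0.592%, and 3 were under 0.05, against 6.54%. For the difference between the responses 0 passed, against 0%, and 2 were under 0.05, against 4.27%. On the same arrays Usp18 rose by 6.44 ± 0.40 in MaSC (adjusted p = 0.0075) and by 6.45 ± 0.40 in LP (adjusted p = 0.0090), and Irf7 by 5.83 ± 0.49 and 4.78 ± 0.49. The median change of the matrix genes was -0.18 averaged over the populations, and that of all genes -0.02. All 4 IFNα and control arrays of a population separated for 11 of 61 genes in MaSC (18.0%), against 32% of all genes, and for 16 in LP (26.2%), against 36.5%.

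**Figure D5:**
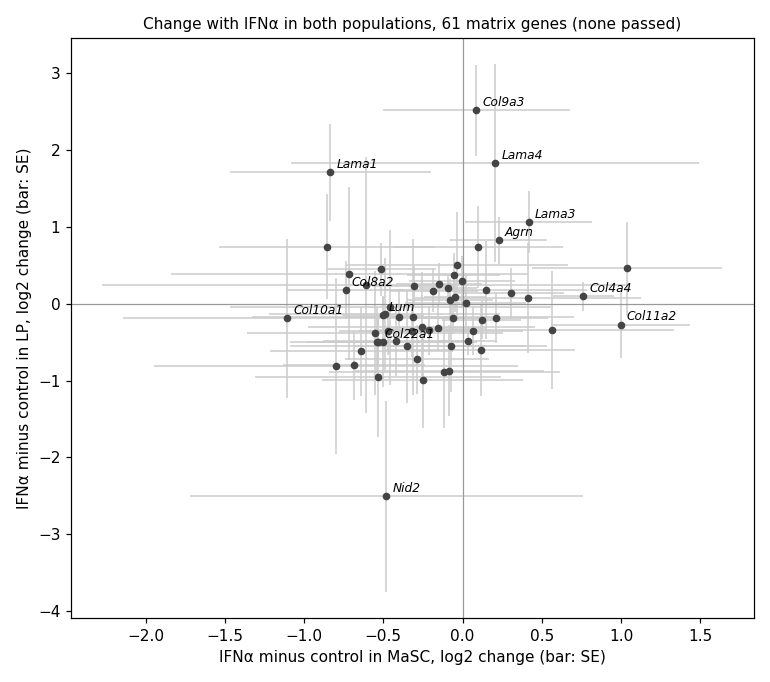
Log2 change with IFNα in LP (y axis) against that in MaSC (x axis) for the 61 tested matrix genes, with standard errors as bars; no gene passed in either population. In LP, Col9a3 at 2.52 and Nid2 at -2.50 lie furthest out, and in MaSC Col10a1 at -1.11.

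The matrix genes nearest to a call with IFNα were chosen by p. In MaSC they were Col4a4 at 0.76 ± 0.19 (adjusted p = 0.61), Col11a2 at 1.00 ± 0.44 and Col8a2 at -0.74 ± 0.37. Col4a4 was at 0.76 and 1.10 in MaSC with IFNα and at 0.15 and 0.20 in MaSC controls. Of its 3 probes, 1 was at 0.75 and 0.93 in MaSC with IFNα and at -1.15 and -0.33 in MaSC controls. Another was at 1.50 and 2.30 against 1.47 and 0.81. The last, near the most frequent value on 5 arrays, was at 0.04 and 0.06 against 0.13 and 0.11. In LP Col4a4 was at 0.25 and 0.40 with IFNα and at 0.17 and 0.28 in controls. In LP the 3 genes of lowest p were Col9a3 at 2.52 ± 0.59 (adjusted p = 0.38), Agrn at 0.82 ± 0.30 (adjusted p = 0.62) and Lama1 at 1.71 ± 0.64 (adjusted p = 0.63). Col9a3, a fibril-associated collagen best known from cartilage, was at 3.65 and 3.30 in LP with IFNα and at 0.05 and 1.87 in LP controls, and at 2.96 and 2.30 in MaSC with IFNα and 2.51 and 2.57 in MaSC controls. LP control replicate 1 was the lowest array, and without it the change in LP was 1.61 (adjusted p = 0.41). With it as the only LP control, without replicate 2, the change in LP was 4.02 for Lama4, 3.43 for Col9a3 and -4.55 for Nid2. These values rest on 1 control array.

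Averaged over the populations Col4a4 gave 0.43 ± 0.14 and Col9a3 1.30 ± 0.42 (adjusted p = 0.59 each), followed by Lama3 at 0.74 ± 0.28 (adjusted p = 0.73). The differences between responses, MaSC minus LP, were -2.43 ± 0.84 for Col9a3, -2.54 ± 0.90 for Lama1 and 0.67 ± 0.27 for Col4a4 (adjusted p = 0.9997 each). Lama3 was the matrix gene whose IFNα arrays lay above control in both populations: 3.90 and 4.21 in MaSC with IFNα against 3.62 and 3.66 in MaSC controls, and 2.85 and 3.68 in LP with IFNα against 1.75 and 2.67 in LP controls. Col22a1 lay below in both. In either direction the arrays separated for 32% of all genes in MaSC and 36.5% in LP. The share of all genes that separated in the same direction in both was not computed. The fibrillar collagens had a median change of -0.33 in MaSC and -0.29 in LP, and the basement membrane genes of -0.04 and -0.20. For Col1a1 the change in MaSC was within the spread of replicates, with means of -2.70 ± 1.76 in MaSC with IFNα and -2.25 ± 1.37 in MaSC controls (SD, n = 2 each).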

How the data were processed

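Total RNA was measured on dual-channel Agilent arrays, 8 samples in 4 groups of 2. The deposited values are log ratios that the authors took from Cy5 (sample) and Cy3 (reference), read here as log2. The base, which the sources used here do not give, was inferred from the range, and the direction from the dyes, per the labels. Agilent Feature Extraction 11.0 was used, per the submitters' processing notes. Normalization and centring are not given in the sources used here. Of 55681 probes 347 lack a value on some array. Medians lay between -0.14 and 0.15. Intensities were not analysed here, so which values are above background is unknown. With 2 arrays a group, the number of arrays limits the precision.

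Probes were named from the platform annotation and averaged by symbol. The fit was made in limma 3.58.1 (R 4.3.3; lmFit, eBayes) with 1 mean per group over all arrays, leaving 4 residual and 1.98 prior degrees of freedom. The two-sided p-values were adjusted by Benjamini and Hochberg over 21794 genes in each comparison, and a gene passed under 0.05. The procedure was tested on simulated data. Alternatives were another probe rule, normalization, scaling, a replicate block, other moderation, fewer groups or more genes, and leaving out each array.

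Named were members listed by role, members past the threshold or the 3 of lowest p, and from other lists up to 4 passing genes or that of lowest p. Col5a3, Lama4, Col8a1, Col14a1, Col22a1, Col9a2, Itgb4, Kit, Usp18, Irf7, Pecam1 and Pdgfra were among those named outside this rule, after their values were seen. The members and lists were chosen with earlier results of these data known.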

Additional observations from a re-analysis of the deposited data

How the results depend on the processing

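Of the 12 genes called between MaSC and LP none changed sign under the 14 alternatives run for each by gene. They passed in 57 of 72 alternatives that kept all arrays and in 40 of 96 that left 1 out. With 1 array left out 2 to 10 matrix genes passed, fewest without LP IFNα replicate 2 and most without either LP control array. Of the 12, 8 were among the 10 without LP control replicate 1, beside Nid2 and Col14a1, and 9 without replicate 2, beside Lama4. Over all genes, too, each fit with 1 array left out called fewer between MaSC and LP than the 804 with all arrays. There the fewest were also without LP IFNα replicate 2, and the most without either LP control array. The loss of calls in these fits was thus not confined to the matrix genes. Scaling the arrays to one standard deviation ended the calls of Dcn, Lum, Col6a1, Lama5, Col7a1 and Lamb2. Quantile normalization ended those of Lum, Col6a1, Col7a1 and Lamb2. Nid1, Col5a3 and Col9a2 passed under both, Col5a1 with equal standard deviations, and Col4a2 and Agrn with quantile normalization. Trend and robust moderation ended those of Col6a1 and Col7a1, and the probe with the highest mean that of Lamb2, which was also absent when probes were tested singly. Col23a1 passed with the probe of highest mean. The 2 calls in controls became 0 with trend and robust moderation or with the compared groups alone, and 0 to 5 with 1 array left out. The Dcn call was lost, and Lama1 passed, with quantile normalization and equal standard deviations, and Sparc passed with quantile normalization and with the probe of highest mean. The 1 call with IFNα became 0 with the probe of highest mean, any probe, quantile normalization, equal standard deviations, trend and robust moderation or the compared groups alone, and 0 to 1 with 1 array left out. The 0 calls for IFNα became 0 to 3 in LP and 0 to 2 averaged over the populations, with calls only where LP control replicate 2 was left out and replicate 1 stood alone, its spread assumed to be that of the other groups. The basement membrane median of 0.36 became 0.14 with the probe of highest mean, 0.10 with quantile normalization, 0.12 with equal standard deviations, and 0.037 to 0.42 with 1 array left out. The median of Lama3 and Lamb3, 0.53, became -0.051 with quantile normalization and -0.15 with equal standard deviations. The causes were not tested.

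The replicate numbers occur in every group, but nothing in the labels says that they pair samples. Deviations from the group means correlated between groups at -0.02 to 0.31 over all genes and at 0.22 to 0.65 over the matrix genes. With the replicate number as a block, 15 matrix genes passed between MaSC and LP. Of all 21794 genes 1107 passed with the block and 804 without it. In controls 5 matrix genes passed (Sparc, Col17a1, Lum, Col5a3 and Col4a1, without Dcn), and 117 of all genes did. With IFNα 1 passed, which was Sparc (adjusted p = 0.028) and not Col17a1, and 54 of all genes did. The fibrillar collagens Col1a1 (adjusted p = 0.040), Col3a1 (0.025), Col5a1 (0.028) and Col5a3 (0.011) and, as lower in MaSC, Col4a5 (-1.15, 0.033) were gained, and Col7a1 (0.053) and Lamb2 (0.052) were lost.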
